A study of Homo sapiens with 18 samples.

Results

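The genes described here are 10 immediate early genes: EGR1, EGR2, EGR3, EGR4, NR4A1, NR4A2, NR4A3, IER2, IER5 and DUSP1. They were taken by symbol from a count table of 61487 human gene identifiers, and all 10 were found. RNA was counted in 18 libraries of MSC-hTERT, a human mesenchymal stem cell line immortalized with the catalytic subunit of telomerase. The libraries fall into 6 groups of 3. Cells labelled pMSCV carry the name of a retroviral vector and are taken as the control, cells labelled SRF carry the name of the transcription factor alone, and the other cells are labelled SRF-RELA, SRF-PDGFRB, SRF-ICA1L and SRF-FOXO1 after gene fusions. All groups were grown in the same medium with 10% serum and 1 ng/ml FGF-2, with no stimulus named in the labels, and all are derivatives of 1 immortalized line. Each library name ends in a number, 1, 2 or 3, and the labels do not say what it marks or whether it stands for a separate culture, so p-values measure the spread between these libraries, which may be technical.

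Immediate early genes are transcribed within minutes of a growth factor, serum, stress or handling stimulus, without new protein synthesis, and their short-lived transcripts then decline. Their promoters are read out by transcription factors that are already present, among them SRF with its ternary complex partners, which bind CArG boxes, and CREB, which binds cyclic AMP response elements (CRE). EGR1 to EGR4 encode zinc finger transcription factors, NR4A1 to NR4A3 encode orphan nuclear receptors, IER2 and IER5 encode small nuclear regulators, and DUSP1 encodes a phosphatase that switches off MAP kinases.

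The promoters of EGR1, EGR2 and DUSP1 are shown because their sequences differ in these elements. EGR1 and DUSP1 were among the genes that moved most with replicate number. EGR2 was higher than in pMSCV in SRF-ICA1L, SRF-RELA and SRF-FOXO1, but not in SRF-PDGFRB (log2 fold change 0.0024). The edgeR test called these rises only in a fit that also held the replicate number. The 250 bases upstream of each RefSeq start were read from GRCh38.p14, for 8 of the 10 genes and 11 start sites. EGR3 and NR4A2 had no entry. Capitals mark CArG boxes and CRE matches, searched on both strands, where the CRE core was TGACG and the full CRE TGACGTCA, which contains the core on each strand.
EGR1, chr5:138465229-138465478, plus strand: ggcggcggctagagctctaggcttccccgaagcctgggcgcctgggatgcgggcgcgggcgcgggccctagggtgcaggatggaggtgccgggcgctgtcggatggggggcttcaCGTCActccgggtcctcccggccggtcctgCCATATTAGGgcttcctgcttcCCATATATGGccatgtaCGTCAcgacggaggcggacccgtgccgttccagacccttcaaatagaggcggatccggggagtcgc
EGR2, chr10:62816367-62816616, minus strand: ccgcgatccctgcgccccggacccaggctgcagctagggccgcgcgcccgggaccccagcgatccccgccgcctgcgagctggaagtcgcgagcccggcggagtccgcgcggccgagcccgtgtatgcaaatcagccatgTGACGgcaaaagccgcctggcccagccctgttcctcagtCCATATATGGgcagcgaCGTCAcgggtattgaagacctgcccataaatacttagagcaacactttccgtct
DUSP1, chr5:172771196-172771445, minus strand: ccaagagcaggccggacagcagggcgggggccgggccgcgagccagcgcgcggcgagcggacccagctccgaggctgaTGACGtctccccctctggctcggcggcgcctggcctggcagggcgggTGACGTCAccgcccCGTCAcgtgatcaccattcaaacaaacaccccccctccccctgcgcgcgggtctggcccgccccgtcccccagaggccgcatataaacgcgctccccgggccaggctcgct

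EGR1 held 2 CArG boxes, at 105 to 96 and 83 to 74 bases upstream of the start. EGR2 held 1, at 71 to 62 bases upstream of the third of its 3 starts, and the windows of the other 6 genes held none. A CArG box was found in 1.16% of 35116 RefSeq windows of this length. The full CRE was found in DUSP1, at 125 to 118 bases upstream, and in 1.65% of all windows. The CRE core was found in EGR1, EGR2, EGR4, NR4A3, IER2 and DUSP1, and in 21.2% of all windows, and was not found in the windows of NR4A1 and IER5. A match describes the letters in the window, and its use by a factor was not measured here.

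In the GENCODE annotation of GRCh38, all 10 are protein-coding genes. EGR1 lies at chr5:138465490-138469315 on the plus strand and DUSP1 at chr5:172768090-172771195 on the minus strand. EGR2 (chr10:62811996-62919900), EGR4 (chr2:73290929-73293705) and NR4A2 (chr2:156324432-156342348) lie on the minus strand, and NR4A3 (chr9:99821855-99866891), IER2 (chr19:13150415-13154908) and IER5 (chr1:181088712-181092899) on the plus strand. NR4A1 lies on the plus strand at chr12:52022832-52059507 and shares its locus with an antisense gene, NR4A1AS. Whether the counting used strand is not given in the sources used here, so reads of those 2 genes cannot be told apart.

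Libraries held 19362319 to 29806771 counts. SRF was at 61.0 ± 3.56 CPM (counts scaled to a common library total, SD, n = 3) in pMSCV, at 945 ± 236 CPM in SRF and at means of 182 to 326 CPM in the 4 fusions, so it was higher in every group labelled with it. FOXO1 was at 9.79 ± 3.99 CPM in the libraries labelled SRF-FOXO1 and at 12.6 ± 4.27 CPM in pMSCV, so its level does not check that label. Mesenchymal markers were present in all 18 libraries (NT5E at 250.2 to 739 CPM), and CD3E of T cells and MYOG of skeletal muscle were at 0 counts in all 18. KRT18 (24.3 to 191 CPM), KRT8 and the endothelial PECAM1 (4.31 to 28.0 CPM) were also present. Of the 10 genes, 8 had 52 or more counts in every library. NR4A3 had 8 to 55 counts. EGR4 had 0 to 28 counts, with at least 10 in 6 libraries, which belong to SRF-ICA1L (3), SRF-RELA (2) and SRF (1). The filter on low counts scales by library size, and EGR4 passed it only through libraries of SRF-ICA1L and SRF-RELA. Its calls in those groups are read with that in mind. In bulk RNA, fewer cells of a kind and less RNA per cell cannot be told apart.

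**Figure D1:**
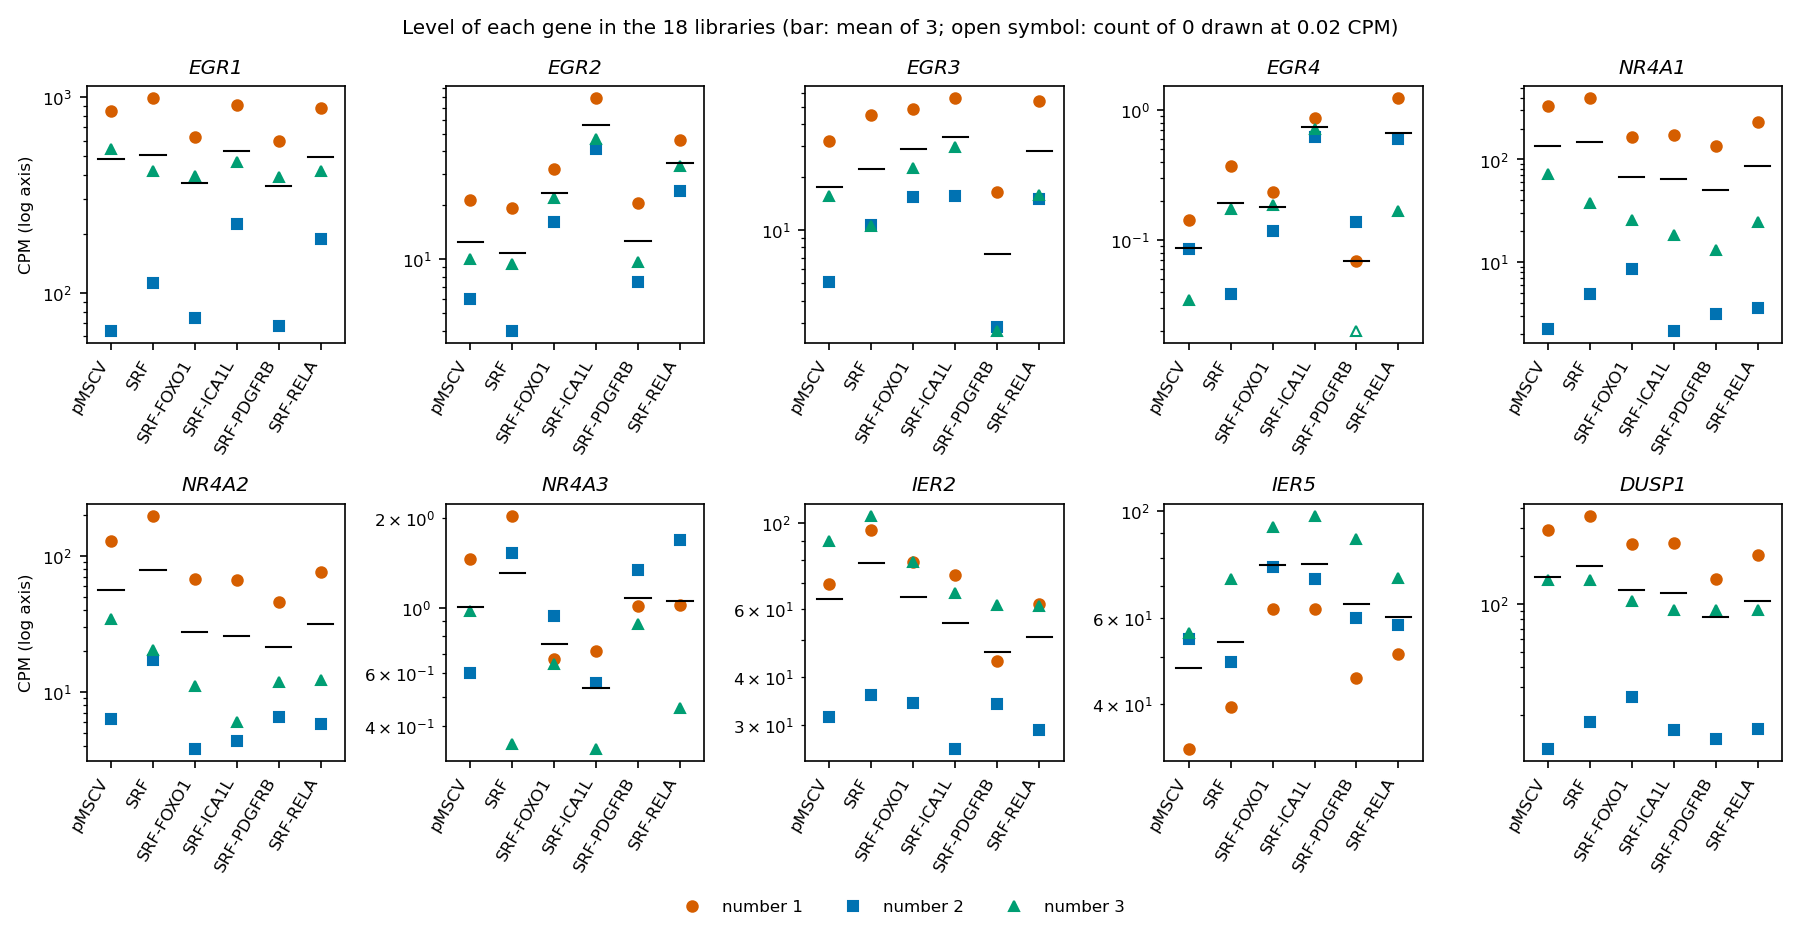
Level of each gene in CPM (log axis) in the 6 groups, with 1 symbol per library coloured by replicate number, a bar at the mean of 3 and an open symbol for a count of 0. NR4A1, DUSP1, EGR1 and IER2 have all 6 libraries numbered 2 at the bottom, whereas the EGR2 panel shows SRF-ICA1L highest, with all 3 libraries between 41.4 and 79.6 CPM.

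The libraries were first compared by replicate number across the 6 groups, with edgeR's quasi-likelihood test in a fit with group and number as factors. Number 2 was set apart because earlier results of these data had shown FOS and EGR1 low there. The low level of FOS and EGR1 in number 2 was therefore known beforehand, and their calls are no independent support. In number 2 against the mean of numbers 1 and 3, 7 of the 10 genes fell and none rose, and over all 18544 genes tested 5.38% fell and 7.32% rose. The 7 were NR4A1, DUSP1, NR4A2, EGR1, EGR3, IER2 and EGR2. Their log2 fold changes ran from -4.25 to -0.89, and the median over all 10 genes was -1.19 against -0.00081 over all genes. EGR4, NR4A3 and IER5 did not pass the test.

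NR4A1, the orphan receptor also known as Nur77, had the widest range. In pMSCV its libraries 1, 2 and 3 held 334, 2.24 and 72.3 CPM, in SRF 399, 4.97 and 38.1 CPM, and in those labelled SRF-FOXO1 167, 8.65 and 25.6 CPM. In SRF-ICA1L they held 175, 2.15 and 18.4 CPM, in SRF-PDGFRB 134, 3.12 and 13.2 CPM, and in SRF-RELA 233, 3.61 and 24.4 CPM. The order was 1, then 3, then 2 in all 6 groups, and the ranges of the 3 numbers did not overlap. Mean CPM in number 1 was 58.3 times that in number 2. NR4A1 fell by 4.25 on the log2 scale in number 2 (SE 0.36, edgeR adjusted p = 2.09e-05).

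DUSP1, the MAP kinase phosphatase, showed the same order. Its level was 143 to 357 CPM in number 1 (median 239.6), 12.3 to 26.0 CPM in number 2 (median 16.4) and 91.2 to 142 CPM in number 3 (median 98.5), with 6 libraries each. None of these 3 ranges overlapped. DUSP1 fell by 3.17 in number 2 (SE 0.17, edgeR adjusted p = 8e-08).

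EGR1, the growth-factor induced zinc finger factor, was at 845, 63.7 and 541 CPM in libraries 1, 2 and 3 of pMSCV and at 994, 113 and 418 CPM in SRF. In those labelled SRF-FOXO1 it was at 626, 74.7 and 396 CPM, in SRF-ICA1L at 913, 224 and 463 CPM, in SRF-PDGFRB at 597, 67.3 and 392 CPM, and in SRF-RELA at 877, 189 and 419.6 CPM. The number 2 libraries of SRF-ICA1L and SRF-RELA were the highest of the 6, yet still below each library numbered 1 or 3. EGR1 fell by 2.35 in number 2 (SE 0.22, edgeR adjusted p = 2.25e-05).

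NR4A2, the orphan receptor Nurr1, held 45.4 to 197 CPM in number 1 (median 71.9), 3.80 to 17.2 CPM in number 2 (median 6.05) and 5.97 to 34.1 CPM in number 3 (median 11.9). Number 2 was lowest within each of the 6 groups, but the ranges of numbers 2 and 3 overlapped. NR4A2 fell by 2.36 in number 2 (SE 0.23, edgeR adjusted p = 3.4e-05).

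IER2, which encodes a small nuclear protein, held 26.1 to 36.0 CPM in number 2 and 43.9 to 104 CPM in the other 12 libraries, with no overlap. Its number 1 and number 3 libraries were the highest in 3 groups each. IER2 fell by 1.13 in number 2 (SE 0.10, edgeR adjusted p = 1.02e-05) and did not pass the test between numbers 3 and 1 (log2 fold change 0.11, SE 0.11, adjusted p = 0.582). Of all genes tested, 60 (0.324%) had their 6 number 2 libraries below the other 12, and these included EGR1, NR4A1, IER2 and DUSP1.

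EGR2 and EGR3, the EGR factors best known from peripheral nerve and muscle spindle development, fell in number 2, with log2 fold changes of -0.89 (SE 0.14, edgeR adjusted p = 0.00137) and -1.26 (SE 0.19, adjusted p = 0.00107). Their ranges overlapped between numbers: EGR3 held 16.5 to 56.4 CPM in number 1, 2.85 to 15.6 CPM in number 2 and 2.69 to 29.5 CPM in number 3. Number 2 was lowest in 6 groups for EGR2 and in 4 for EGR3.

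The contrast within the other 12 libraries, number 3 against number 1, gave 6 genes that fell, against 7.84% of all genes, and 1 that rose, against 8.16%. The log2 fold change was -3.03 for NR4A1 (SE 0.34, edgeR adjusted p = 9.54e-05), -2.63 for NR4A2 (SE 0.24, adjusted p = 1.57e-05), -1.54 for EGR3 (SE 0.21, adjusted p = 0.000256), -1.15 for DUSP1 (SE 0.17, adjusted p = 0.00042), -0.87 for EGR1 (SE 0.23, adjusted p = 0.0179) and -0.86 for EGR2 (SE 0.16, adjusted p = 0.00188). The EGR1 call was lost without replicate 1 of pMSCV (adjusted p = 0.0575), without replicate 1 of SRF (0.0579) or without replicate 3 of SRF (0.0664), and without a filter on low counts (0.0864). EGR4, at -1.20 (SE 0.45, adjusted p = 0.0828), and NR4A3, at -0.93 (SE 0.33, adjusted p = 0.0697), did not pass. NR4A3 was called, in the same direction, by DESeq2 (adjusted p = 0.0481), without a filter on low counts (edgeR adjusted p = 0.0245), and without replicate 2 of pMSCV (0.0346), replicate 3 of pMSCV (0.0465) or replicate 1 of SRF-FOXO1 (0.0434).

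IER5, a nuclear regulator known to act with the heat shock factor HSF1, was the gene that rose. In libraries 1, 2 and 3 it held 32.3, 54.4 and 55.8 CPM in pMSCV, 39.5, 48.7 and 72.5 CPM in SRF and 62.6, 76.4 and 92.7 CPM in those labelled SRF-FOXO1. It held 62.8, 72.4 and 97.7 CPM in SRF-ICA1L, 45.1, 60.1 and 87.5 CPM in SRF-PDGFRB, and 50.6, 58.2 and 72.7 CPM in SRF-RELA. Number 1 was lowest and number 3 highest in all 6 groups, an order that none of the other 9 genes had. IER5 rose by 0.70 in number 3 against number 1 (SE 0.075, edgeR adjusted p = 2.75e-05) and by 0.40 in number 2 against number 1 (SE 0.075, adjusted p = 0.00205).

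Number 2 was also set against each of the others alone. Against number 1, 7 of the 10 genes fell (7.29% of all genes fell) and IER5 alone rose (8.61% rose). Against number 3, 6 fell (4.99% of all genes): NR4A1, DUSP1, EGR1, IER2, NR4A2 and IER5. EGR2, at -0.46 (SE 0.16, edgeR adjusted p = 0.0827), and EGR3, at -0.49 (SE 0.21, adjusted p = 0.159), did not pass there.

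**Figure D2:**
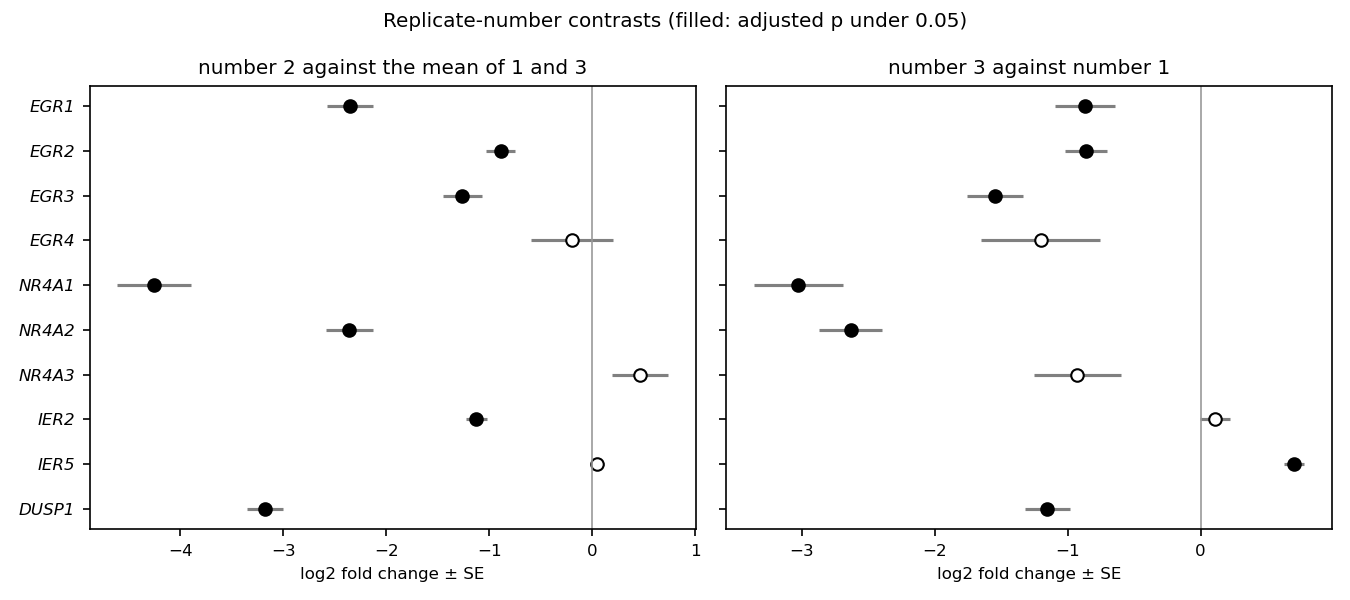
Log2 fold change ± SE of each gene in number 2 against the mean of numbers 1 and 3 (left) and in number 3 against number 1 (right), over 18 libraries, filled where edgeR's adjusted p was under 0.05. NR4A1 is lowest in each panel, at -4.25 and -3.03, and IER5 is the gene above 0 that is filled, at 0.70 in the right panel.

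Other stimulus-responsive genes were read in the same number 2 contrast. In the AP-1 family, the partner immediate early factors of the FOS and JUN type, 7 of the 9 genes tested fell and none rose, with a list median of -0.84. The log2 fold change was -6.81 for FOSB (SE 0.24, edgeR adjusted p = 4.81e-10), -4.70 for FOS (SE 0.25, adjusted p = 7.48e-08) and -2.47 for ATF3 (SE 0.32, adjusted p = 0.000424). Of 32 further immediate early genes, 11 fell and 1 rose, with a list median of -0.12. ZFP36, which destabilizes AU-rich mRNAs, fell by 2.60 (SE 0.15, adjusted p = 1.1e-07), and IER5L, a relative of IER5, rose by 0.29 (SE 0.084, adjusted p = 0.0312). Among 13 ERK feedback genes 5 fell, with DUSP6, a phosphatase specific to ERK, at -0.87 (SE 0.16, adjusted p = 0.00307). NAB1 and NAB2, corepressors that bind EGR factors, did not pass. These lists also moved in number 3 against number 1, where 7.84% of all genes fell and 8.16% rose. There 17 of the 32 further immediate early genes fell and 2 rose, with a list median of -0.49. Of the 9 AP-1 genes 4 fell and 0 rose, and of the 13 ERK feedback genes 5 fell and 1 rose.

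Further lists were read in number 2, where 7.32% of all genes rose and 5.38% fell. Of 10 targets of SRF with the actin-sensing MRTF coactivators, 4 rose and none fell: the smooth muscle gene CNN1 by 1.09 (SE 0.16, edgeR adjusted p = 0.000775), TAGLN by 0.88 (SE 0.17, adjusted p = 0.00461), TPM1 by 0.64 (SE 0.13, adjusted p = 0.00602) and MYL9 by 0.56 (SE 0.12, adjusted p = 0.00757). Of 7 genes for SRF and its partners, MYOCD, the myocardin coactivator, rose by 2.61 (SE 0.31, adjusted p = 0.00013) and MRTFA by 0.23 (SE 0.068, adjusted p = 0.036). Of 10 heat shock genes 3 rose, the highest being HSPB1 at 0.31 (SE 0.094, adjusted p = 0.0434). CREB-linked genes were split, with PDE4B up by 0.62 (SE 0.17, adjusted p = 0.0256) and the clock gene PER1 at -0.55 (SE 0.11, adjusted p = 0.0065), of 10. Of the epithelial markers tested 2 of 3 rose in number 2, KRT18 by 0.83 (SE 0.12, adjusted p = 0.000707) and KRT8 by 0.27 (SE 0.068, adjusted p = 0.0191). The summed level of the 4 epithelial markers was 50.9 to 98.6 CPM in number 1, 87.4 to 232 CPM in number 2 and 91.1 to 176 CPM in number 3, with EPCAM at 0 in 2 libraries and CDH1 at 0 in 6. Of 3 endothelial markers VWF rose, by 1.23 in number 2 (SE 0.30, adjusted p = 0.0163) and by 1.68 in number 3 against number 1 (SE 0.40, adjusted p = 0.00945), and the list's summed level was 11.0 to 15.1 CPM in number 1, 6.42 to 28.4 CPM in number 2 and 7.01 to 20.8 CPM in number 3. Of 2 haematopoietic markers tested CD34 rose in number 3 against number 1, by 0.93 (SE 0.24, adjusted p = 0.0156). The part of these markers in the number results was not tested.

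**Figure D3:**
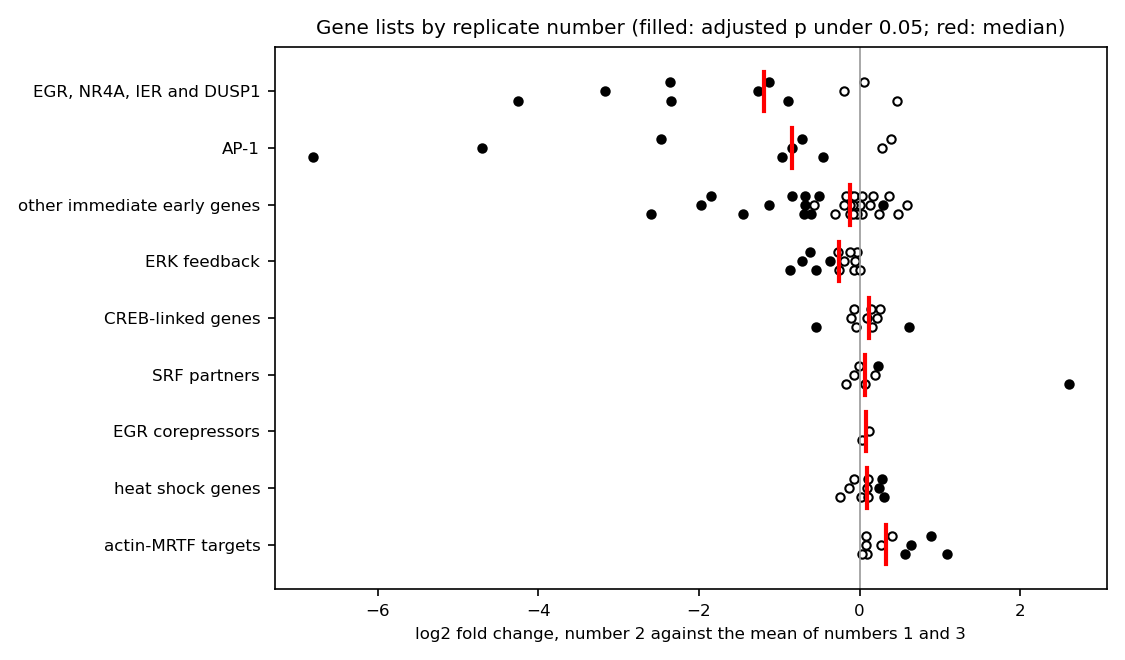
Log2 fold change in number 2 against the mean of numbers 1 and 3 for each gene of 9 lists, with filled points where edgeR's adjusted p was under 0.05 and a red line at the list median. The 10 genes described here have a median of -1.19 and the AP-1 list -0.84, and the actin-MRTF targets lie on the other side of 0 with a median of 0.33.

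Over the 18 libraries, the genes whose log2 CPM followed the mean standardized level of the 10 genes most closely were SGK1 (Pearson r = 0.94), ZFP36 (0.90), RHOB (0.89), JUNB (0.88), ZNF295-AS1 (0.88), JUND (0.88), LINC02577 (0.87), SOCS3 (0.87), COL21A1 (0.87) and NR4A1AS (0.86). The lowest were STAM-DT (-0.88), RENO1 (-0.87) and NSUN4 (-0.85). These values describe likeness across 18 libraries that share replicate numbers and a scaling. The 10 genes themselves did not share 1 pattern. Between pairs of them r ran from -0.69 (NR4A2 with IER5) to 0.96 (NR4A1 with DUSP1). Reads of NR4A1AS cannot be told apart from those of NR4A1, which is among the 10 genes, so its likeness may come from NR4A1 reads. ZNF295-AS1 (0.43 to 1.70 CPM) and COL21A1 (0.47 to 6.68 CPM) were low. SGK1, a serum and glucocorticoid induced kinase, held 257 to 509 CPM in number 1, 46.2 to 84.7 CPM in number 2 and 97.6 to 195 CPM in number 3.

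The size of the differences between numbers was set beside that between groups as the distance from the highest to the lowest mean, in log2 CPM. The distance between numbers was larger for NR4A1 (5.86 against 1.29 between groups), DUSP1 (3.77 against 0.81), NR4A2 (3.69 against 1.68), EGR1 (2.85 against 0.98) and IER2 (1.19 against 0.69). The distance between groups was larger for EGR4 (2.66 against 0.95), EGR2 (2.65 against 1.36), EGR3 (2.65 against 2.05) and IER5 (0.84 against 0.70). For NR4A3 they were alike, at 0.87 and 0.87, with a residual SD of 0.59. The distance between groups ranges 6 means of 3 libraries, and that between numbers 3 means of 6. Spread between libraries alone therefore widens the distance between groups more, so the 2 distances are not on an equal footing. Residual SDs ran from 0.13 for IER5 to 0.68 for NR4A1. SRF-ICA1L was the highest group for EGR1, EGR2, EGR3, EGR4 and IER5, and SRF for the other 5 genes, but in the order of group means each group's 3 libraries overlapped those of the next for all 10 genes.

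**Figure D4:**
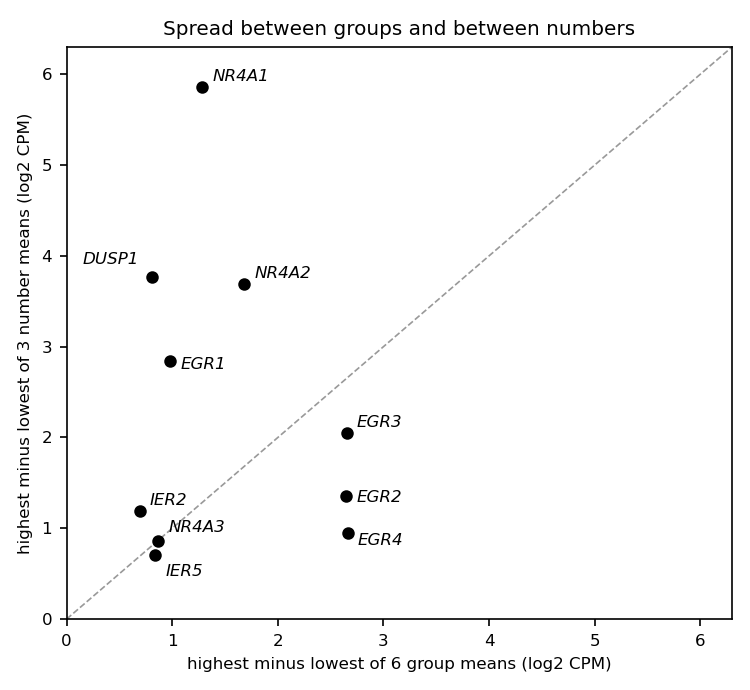
Distance between the highest and lowest of the 3 number means (vertical axis) against that of the 6 group means (horizontal axis), both in log2 CPM, 1 point per gene, with equality dashed. NR4A1, DUSP1, NR4A2, EGR1 and IER2 lie above the line, and EGR2, EGR3, EGR4 and IER5 lie below it.

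Groups were compared next, to ask how each construct changed these genes. In the fit with group alone, none of the 10 genes was called in any of the 15 comparisons by edgeR's quasi-likelihood test, with 0 to 3 genes at an unadjusted p under 0.05 in each. DESeq2's Wald test called EGR2 and EGR4 in SRF-ICA1L against pMSCV, the same 2 genes in SRF-ICA1L against SRF-PDGFRB, and EGR2 in SRF-ICA1L against SRF. Over all genes this fit called 0.0270% in SRF, 0.183% in SRF-RELA, 0.0324% in SRF-PDGFRB, 0.469% in SRF-ICA1L and 0.928% in SRF-FOXO1, each against pMSCV. Against SRF it called 0.388% in SRF-RELA, 0.146% in SRF-PDGFRB, 0.782% in SRF-ICA1L and 1.36% in SRF-FOXO1. Between fusions it called 0.0270% for SRF-FOXO1 against SRF-ICA1L, 0.717% for SRF-FOXO1 against SRF-PDGFRB, 0.00539% for SRF-FOXO1 against SRF-RELA, 0.820% for SRF-ICA1L against SRF-PDGFRB, 0.0108% for SRF-ICA1L against SRF-RELA and 0.162% for SRF-PDGFRB against SRF-RELA. Since libraries with the same number deviated together, values of a fit with the number as a block are given beside these, where they change the call. Comparisons with pMSCV share its 3 libraries, and the same holds for comparisons with SRF.

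EGR2 was called with the block in more of the 15 comparisons than any other of the 10 genes. Its libraries 1, 2 and 3 held 21.4, 5.97 and 9.97 CPM in pMSCV, 19.2, 3.98 and 9.44 CPM in SRF and 20.5, 7.45 and 9.71 CPM in SRF-PDGFRB. They held 79.6, 41.4 and 46.9 CPM in SRF-ICA1L, 46.1, 24.1 and 33.2 CPM in SRF-RELA, and 31.7, 16.1 and 22.1 CPM in those labelled SRF-FOXO1. All libraries of SRF-ICA1L and SRF-RELA were above all of pMSCV and of SRF, whereas those labelled SRF-FOXO1 overlapped the number 1 libraries of both.

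Against pMSCV, EGR2 was at 2.26 in SRF-ICA1L (SE 0.58, edgeR adjusted p = 0.125), at 1.51 in SRF-RELA (SE 0.57, adjusted p = 1.00) and at 0.96 in those labelled SRF-FOXO1 (SE 0.56, adjusted p = 0.441) on the log2 scale, none past the threshold. With the replicate block it rose by 2.40 (SE 0.23, adjusted p = 4.87e-05), 1.65 (SE 0.23, adjusted p = 0.00143) and 1.10 (SE 0.23, adjusted p = 0.00978). In the blocked fit, the calls in SRF-ICA1L and SRF-RELA held without any 1 of the 6 compared libraries, with adjusted p up to 0.000794 and 0.0138. The call in SRF-FOXO1 held in 4 of the 6, with the largest adjusted p, 0.0587, without its own replicate 2. EGR2 was higher than in pMSCV in 3 of 3 numbers for each of these 3 fusions. In SRF it was lower in 3 of 3 numbers (-0.56 to -0.03), and neither fit passed there (adjusted p = 0.981 and 0.799).

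IER5 had smaller but tighter differences. With the replicate block it rose by 0.83 in SRF-ICA1L (SE 0.11, edgeR adjusted p = 0.000416) and by 0.80 in those labelled SRF-FOXO1 (SE 0.11, adjusted p = 0.000454) against pMSCV, and both calls held without any 1 of the 6 compared libraries. The libraries of these 2 groups were above all 3 of pMSCV. Without the block the values were 0.82 (SE 0.28, adjusted p = 0.256) and 0.79 (SE 0.28, adjusted p = 0.1998). SRF-PDGFRB, at 0.43 (SE 0.27, adjusted p = 1.00), and SRF-RELA, at 0.41 (SE 0.27, adjusted p = 1.00), did not pass, nor with the block (adjusted p = 0.218 and 0.0913), though IER5 was higher in 3 of 3 numbers in each.

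EGR3 was lowest in SRF-PDGFRB. Its libraries 1, 2 and 3 held 16.5, 2.85 and 2.69 CPM there, 31.9, 5.12 and 15.7 CPM in pMSCV and 45.2, 10.7 and 10.6 CPM in SRF. They held 56.4, 15.6 and 29.5 CPM in SRF-ICA1L, 53.9, 15.1 and 15.9 CPM in SRF-RELA and 48.5, 15.4 and 22.4 CPM in those labelled SRF-FOXO1. Within each number SRF-PDGFRB was the lowest of the 6 groups, and its number 1 library overlapped the number 2 or 3 libraries of the others. Against pMSCV EGR3 was at -1.25 in SRF-PDGFRB (SE 0.89, edgeR adjusted p = 1.00) and at -1.40 with the block (SE 0.31, adjusted p = 0.133). In SRF-ICA1L it was at 1.03 (SE 0.87, adjusted p = 0.745), and with the block it rose by 1.16 (SE 0.29, adjusted p = 0.0372), a call that held in 2 of the 6 fits without 1 library and reached adjusted p = 0.174 without SRF-ICA1L replicate 3.

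EGR4, the least studied of the EGR factors, was close to the limit of counting. Its libraries held 22, 18 and 17 counts in SRF-ICA1L and 28, 17 and 4 in SRF-RELA, against 4, 2 and 1 in pMSCV, 10, 1 and 5 in SRF, 7, 3 and 4 in those labelled SRF-FOXO1, and 2, 4 and 0 in SRF-PDGFRB. The 3 libraries of SRF-ICA1L were above all of pMSCV, SRF, SRF-FOXO1 and SRF-PDGFRB, whereas the third library of SRF-RELA was within the range of SRF and of SRF-FOXO1. The log2 fold change against pMSCV was 3.11 in SRF-ICA1L (SE 0.78, edgeR adjusted p = 0.102) and 2.92 in SRF-RELA (SE 0.78, adjusted p = 0.272). With the block EGR4 rose by 3.20 in SRF-ICA1L (SE 0.65, adjusted p = 0.0104), a call that held in 4 of the 6 fits without 1 library and reached adjusted p = 0.0577 without pMSCV replicate 3. In SRF-RELA it did not pass with the block (2.86, SE 0.66, adjusted p = 0.0551). Each value rests on the 7 counts of pMSCV in all, and the gene passed the filter only through libraries of SRF-ICA1L and SRF-RELA.

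NR4A2 held 129, 6.28 and 34.1 CPM in libraries 1, 2 and 3 of pMSCV, 197, 17.2 and 20.2 CPM in SRF and 66.4, 4.38 and 5.97 CPM in SRF-ICA1L. Those labelled SRF-FOXO1 held 67.8, 3.80 and 11.1 CPM, SRF-PDGFRB 45.4, 6.52 and 11.8 CPM, and SRF-RELA 76.0, 5.82 and 12.1 CPM. In number 1 and in number 3 all 4 fusions were below pMSCV and SRF. NR4A2 was the lowest gene against pMSCV in SRF-RELA (-0.83, SE 1.44, edgeR adjusted p = 1.00), SRF-ICA1L (-1.06, SE 1.44, adjusted p = 0.855) and the libraries labelled SRF-FOXO1 (-1.01, SE 1.44, adjusted p = 0.767), and these 3 values turned positive without pMSCV replicate 1 (0.68, 0.43 and 0.49). With the block it fell by 1.28 in SRF-ICA1L (SE 0.34, adjusted p = 0.0445), a call that held in 1 of the 6 fits without 1 library and was lost with adjusted p up to 0.198 without SRF-ICA1L replicate 3.

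**Figure D5:**
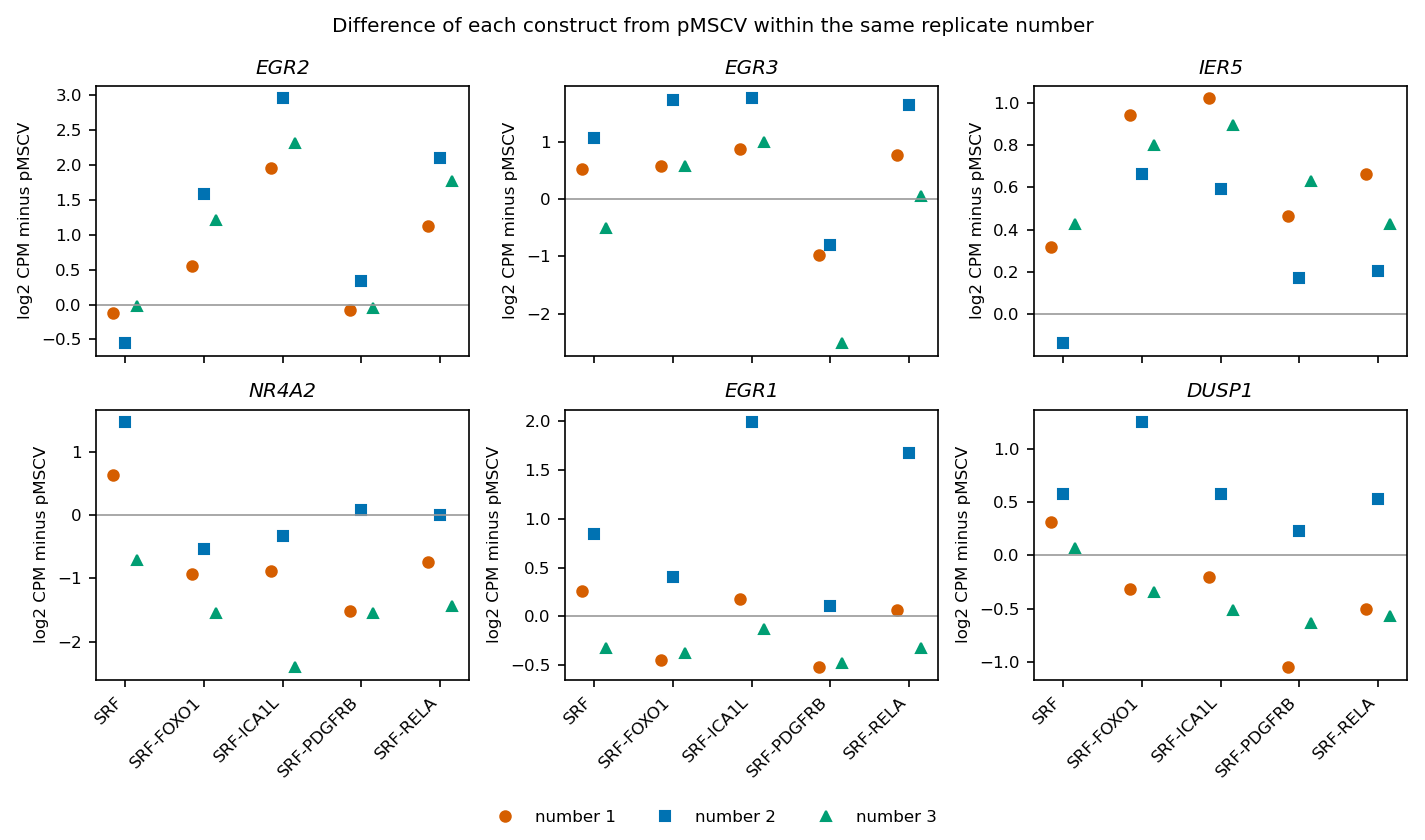
Difference in log2 CPM between each construct and pMSCV within the same replicate number, for 6 genes, with 1 symbol per number and a line at 0. EGR2 is above 0 in 3 of 3 numbers for SRF-FOXO1, SRF-ICA1L and SRF-RELA, EGR3 is below 0 in 3 of 3 for SRF-PDGFRB, and EGR1 and DUSP1 show the number 2 symbol highest in each construct. All symbols of a number in a panel subtract the same pMSCV library.

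EGR1, NR4A1, NR4A3, IER2 and DUSP1 were called against pMSCV in none of the 5 constructs, with or without the block. EGR1 group means were 352 to 533 CPM with SDs of 267 to 447 CPM. Within numbers, EGR1 was higher than in pMSCV in number 2 for all 5 constructs, by 0.10 (SRF-PDGFRB) to 1.99 (SRF-ICA1L), and lower in number 3 for all 5 (-0.48 to -0.13). DUSP1 was also higher in number 2 for all 5, by 0.23 to 1.25, and NR4A1 by 0.12 to 2.09, where pMSCV held 2.24 CPM. All 5 differences of a gene in a number subtract the same pMSCV library, so they are not 5 separate observations. Against SRF, the EGR1 differences in number 2 had both signs, from -0.74 (SRF-PDGFRB) to 1.14 (SRF-ICA1L). NR4A1 in SRF-PDGFRB had the lowest value against pMSCV, -1.45 (SE 1.97, edgeR adjusted p = 1.00), and turned to 0.45 without pMSCV replicate 1. NR4A3 (NOR1) held 0.334 to 2.04 CPM over the 18 libraries.

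Counted by construct against pMSCV, the blocked fit called none of the 10 in SRF (0.243% of all genes) and none in SRF-PDGFRB (0.178%), where 0 and 6 genes had an unadjusted p under 0.05 and DESeq2 called none. It called 2 in SRF-FOXO1 (7.03%), IER5 and EGR2, 5 in SRF-ICA1L (4.66%), EGR2, IER5, EGR4 and EGR3 upward and NR4A2 downward, and 1 in SRF-RELA (0.971%), EGR2. Genes whose 3 libraries were all above the 3 of pMSCV were EGR2 and EGR4 for SRF-RELA (5.20% of all genes), EGR2, EGR4 and IER5 for SRF-ICA1L (5.69%), and IER5 for SRF-FOXO1 (6.41%). EGR4 passed the low-count filter only through libraries of SRF-ICA1L and SRF-RELA, so its entries here are no support for those groups. Its SRF-RELA library 3 and pMSCV library 1 both held 4 counts, at 0.167 and 0.142 CPM. In SRF the highest value was EGR4 at 1.15 (SE 0.88, edgeR adjusted p = 0.935), and in SRF-FOXO1 it was EGR4 at 1.08 (SE 0.90, adjusted p = 0.598).

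Against SRF, the blocked fit called EGR2 in 3 of the 4 fusions. In SRF-ICA1L it called 3 of the 10 (4.73% of all genes): EGR2 rose by 2.59 (SE 0.23, edgeR adjusted p = 2.61e-05) and IER5 by 0.63 (SE 0.11, adjusted p = 0.00293), and NR4A2 fell by 1.66 (SE 0.33, adjusted p = 0.0123). In SRF-RELA it called 1 (1.73%), EGR2, which rose by 1.84 (SE 0.23, adjusted p = 0.000682). In SRF-PDGFRB it called 3 (2.34%), all lower: EGR3 at -1.70 (SE 0.31, adjusted p = 0.012), NR4A2 at -1.50 (SE 0.33, adjusted p = 0.0347) and IER2 at -0.68 (SE 0.16, adjusted p = 0.0386). For SRF-FOXO1 the replicate 1 pair of libraries did not deviate together, so its numbers are not taken as pairs. There the fit with the number called 3 (7.23%): EGR2 at 1.29 (SE 0.23, adjusted p = 0.004005), IER5 at 0.60 (SE 0.11, adjusted p = 0.00361) and NR4A2 at -1.49 (SE 0.33, adjusted p = 0.0158). The EGR2 and IER5 calls against SRF held without any 1 of the 6 compared libraries, whereas those of NR4A2 held in 2 or 3 of 6, IER2 in 2 of 6 and EGR3 in 4 of 6. The largest adjusted p came without SRF replicate 2 for NR4A2 in SRF-FOXO1 (0.084) and in SRF-ICA1L (0.0698), without SRF-PDGFRB replicate 1 for NR4A2 (0.212) and IER2 (0.237), and without SRF-PDGFRB replicate 3 for EGR3 (0.0573).

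Without the block, the highest and lowest values against SRF were EGR2 at 2.43 (SE 0.58, edgeR adjusted p = 0.0785) and NR4A2 at -1.56 (SE 1.46, adjusted p = 0.746) in SRF-ICA1L, and EGR2 at 1.12 (SE 0.56, adjusted p = 0.389) and NR4A2 at -1.52 (SE 1.45, adjusted p = 0.693) in SRF-FOXO1. In SRF-RELA they were EGR4 at 1.77 (SE 0.69, adjusted p = 0.452) and NR4A2 at -1.33 (SE 1.45, adjusted p = 0.776), and in SRF-PDGFRB IER5 at 0.22 (SE 0.27, adjusted p = 0.773) and NR4A2 at -1.92 (SE 1.48, adjusted p = 0.634). The NR4A2 values turned positive in all 4 fusions without SRF replicate 1, the library with 197 CPM.

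Between fusions, SRF-PDGFRB differed from the other 3 in EGR2 and EGR3 with the block. Against SRF-PDGFRB, 4 of the 10 were called in SRF-ICA1L (4.76%): EGR4 rose by 3.39 (SE 0.67, edgeR adjusted p = 0.00887), EGR3 by 2.55 (SE 0.31, adjusted p = 0.000461), EGR2 by 2.35 (SE 0.23, adjusted p = 5.73e-05) and IER5 by 0.41 (SE 0.11, adjusted p = 0.0352). In SRF-FOXO1 2 were called (4.35%), with EGR3 higher by 2.30 (SE 0.31, adjusted p = 0.000972) and EGR2 by 1.05 (SE 0.23, adjusted p = 0.0178). In SRF-PDGFRB against SRF-RELA 3 were called (0.847%), all lower: EGR4 at -3.05 (SE 0.68, adjusted p = 0.0493), EGR3 at -2.16 (SE 0.31, adjusted p = 0.00285) and EGR2 at -1.60 (SE 0.23, adjusted p = 0.00214). The EGR4 calls are no support for SRF-ICA1L and SRF-RELA, since the gene passed the low-count filter only through their libraries. The 3 EGR3 calls held without any 1 of the 6 compared libraries. The IER5 call held in none of the 6 fits, with adjusted p from 0.0635 to 0.185, and the EGR4 call against SRF-RELA in 1, with adjusted p up to 0.37, in each case at its largest without SRF-PDGFRB replicate 1. EGR4 against SRF-ICA1L was lost without that same library (0.0802), and EGR2 against SRF-FOXO1 held in 2 of 6 and reached 0.105 without SRF-PDGFRB replicate 3.

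Among the other 3 fusions, SRF-FOXO1 against SRF-ICA1L gave 1 call with the block (0.911%), EGR2, which fell by 1.30 (SE 0.22, edgeR adjusted p = 0.0103) and was lost without SRF-ICA1L replicate 2 (adjusted p = 0.0964). SRF-FOXO1 against SRF-RELA (0.167%) and SRF-ICA1L against SRF-RELA (0.0162%) gave none, with 4 and 2 genes at an unadjusted p under 0.05 and none called by DESeq2. Without the block, the extremes were EGR4 at -2.03 (SE 0.70, adjusted p = 0.592) and NR4A3 at 0.46 (SE 0.59, adjusted p = 0.952) in SRF-FOXO1 against SRF-ICA1L. In SRF-FOXO1 against SRF-RELA they were EGR4 at -1.84 (SE 0.71, adjusted p = 0.469) and IER5 at 0.38 (SE 0.27, adjusted p = 0.585), and in SRF-ICA1L against SRF-RELA EGR2 at 0.76 (SE 0.55, adjusted p = 0.999) and NR4A3 at -0.94 (SE 0.58, adjusted p = 0.999). With SRF-PDGFRB they were EGR3 at 2.01 (SE 0.90, adjusted p = 0.317) and NR4A3 at -0.44 (SE 0.56, adjusted p = 0.74) for SRF-FOXO1, and EGR4 at 3.30 (SE 0.80, adjusted p = 0.0721) and NR4A3 at -0.89 (SE 0.58, adjusted p = 0.606) for SRF-ICA1L. SRF-PDGFRB against SRF-RELA ran from EGR4 at -3.10 (SE 0.81, adjusted p = 0.249) to IER5 at 0.02 (SE 0.27, adjusted p = 1.00).

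Other early response genes were called against pMSCV where these 10 were not. Over all genes, in either direction, the fit with group alone called 0.928% in SRF-FOXO1, 0.469% in SRF-ICA1L and 0.183% in SRF-RELA. With the block it was 7.03%, 4.66% and 0.971%. In the fit with group alone, 6 of 32 further immediate early genes rose in SRF-FOXO1, with F3, the tissue factor gene, at 3.18 (SE 0.50, edgeR adjusted p = 0.0115) and ARC, a gene for a neuronal cytoskeletal protein, at 2.84 (SE 0.45, adjusted p = 0.00858), and 2 rose in SRF-ICA1L, the antiproliferative BTG2 by 1.53 (SE 0.23, adjusted p = 0.00399) and DUSP2. DUSP2, a nuclear MAP kinase phosphatase related to DUSP1, held 167, 151 and 174 counts in SRF-ICA1L and 54, 153 and 77 in SRF-RELA, where it was also called, against 0, 3 and 3 in pMSCV. In those labelled SRF-FOXO1 it held 37, 7 and 17 counts. The level of ARC was 1.68, 3.64 and 2.08 CPM in those libraries and 1.95, 1.96 and 1.67 CPM in SRF-RELA. In pMSCV it was 0.11, 0.56 and 0.45 CPM. No AP-1 gene was called against pMSCV in that fit, and with the block FOSL1 was lower in SRF-ICA1L (-1.16, SE 0.19, adjusted p = 0.00279) and in SRF-RELA (-0.86, SE 0.19, adjusted p = 0.0437). Among 13 ERK feedback genes none was called in the fit with group alone. With the block 3 fell and 1 rose in SRF-FOXO1 (list median -0.31), 4 fell and 1 rose in SRF-ICA1L (-0.48), and 1 rose in SRF-RELA (-0.22). Those that fell were ETV1 (-0.80 in SRF-FOXO1 and -0.66 in SRF-ICA1L), PHLDA1 (-0.89 and -1.02) and SPRED1 (-0.55 and -0.59), and SPRY4 in SRF-ICA1L (-0.97), with edgeR adjusted p from 0.004002 to 0.0455. The gene that rose was DUSP5, by 1.05 in SRF-FOXO1 (SE 0.16, adjusted p = 0.00144), 0.76 in SRF-ICA1L (SE 0.16, adjusted p = 0.0132) and 0.73 in SRF-RELA (SE 0.16, adjusted p = 0.0419). CREB-linked genes gave no call against pMSCV in either fit. Of the actin-MRTF targets, ACTB alone was called in the fit with group alone, in SRF-FOXO1 (0.90, SE 0.17, adjusted p = 0.0218), and 7 of 10 rose there with the block, 4 in SRF-ICA1L and 3 in SRF-RELA. Markers of other cell types moved with the same fusions. With the block 3 of 3 epithelial markers tested rose in SRF-FOXO1 and 2 of 3 in SRF-ICA1L against pMSCV. The epithelial summed level was 50.9 to 91.1 CPM in pMSCV, 93.5 to 226 CPM in those labelled SRF-FOXO1 and 98.6 to 232 CPM in SRF-ICA1L. Of 2 haematopoietic markers tested CD34 rose in SRF-FOXO1 and in SRF-ICA1L, with a summed level of 0.92 to 1.94 CPM in pMSCV, 2.05 to 3.76 CPM in SRF-FOXO1 and 2.93 to 4.09 CPM in SRF-ICA1L, and CD3E at 0 throughout. Of 3 endothelial markers VWF rose in SRF-ICA1L, where the summed level was 7.01 to 12.8 CPM against 9.63 to 20.3 CPM in pMSCV. Mesenchymal markers rose as well. With the block 1 of 9 rose in SRF-FOXO1 and 3 of 9 in SRF-ICA1L, and 0 fell in either. Their summed level was 16962 to 19925 CPM in pMSCV, 18043 to 29271 CPM in SRF-FOXO1 and 22151 to 42215 CPM in SRF-ICA1L. The part of these markers in the results of these fusions was not tested.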

How the data were processed

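The deposited values are raw read counts, 1 row per Ensembl identifier and 1 column for each of 18 libraries, per the file headers. Per the submitters' processing notes, reads were handled with FastQC 0.11.8, Trimmomatic 0.39, HISAT2 and featureCounts of Subread 2.0.3 on GRCh38, and per the labels' protocols the libraries were stranded mRNA preparations. The annotation release and the strand setting are not given in the sources used here. Symbols came from a table of gene names that covers 61369 of 61487 identifiers.

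CPM values are counts divided by the library total. Log2 CPM values have TMM scaling and a prior count of 2. The low-count filter, edgeR's filterByExpr at 10 counts, kept 18544 genes. The test was edgeR 4.0.16's quasi-likelihood F test (R 4.3.3), two-sided, robust, with TMM scaling, 1 coefficient per group over 18 libraries (12 residual degrees of freedom) and Benjamini-Hochberg adjustment over all genes tested. Calls were made where the adjusted p was under 0.05. The SE beside an edgeR value is the absolute log2 fold change divided by the square root of its F statistic, and is not reported by edgeR itself. Number contrasts came from a fit with group and number (10 residual degrees of freedom). DESeq2 1.42.0 was an alternative. The scripts were tested on simulated data.

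Whether replicate numbers pair the libraries was read from the counts, since the labels do not say it. Deviations from the group means correlated at over 0.1 in 44 of 45 pairs with the same number (median 0.38, against -0.18 for 90 pairs with different numbers). Deviations cancel out within each group by construction, which ties the correlations of different numbers to those of the same number. The second median is therefore not independent evidence for the pairing. The exception, at 0.087, was replicate 1 of SRF and SRF-FOXO1, so the block is read as a pairing in all comparisons but that one.

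Every member is named. For each comparison of groups the highest and lowest members and any called one are given with statistics. Like genes are the 10 highest and 3 lowest by correlation, and examples of other lists are those with the highest and lowest values; IER3 is in 2 lists. The members, the lists and the number 2 contrast were chosen with earlier results of these data known. Alternatives were the DESeq2 test, scaling by DESeq2 size factors or by total count, no filter or one of 10 counts in all libraries, a minimum size of 1 on the log2 scale, the 2 compared groups alone, the replicate block, other prior counts, and leaving out each library. The block with each library left out was added after seeing the data. Precision is limited by 3 libraries per group.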

Additional observations from a re-analysis of the deposited data

Results flagged for a closer look

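In 7 cases the same-number differences from pMSCV had 1 sign in all 3 numbers for a construct and the opposite sign in all 3 for another. The difference between the 2 constructs was then read from its direct comparison.

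EGR2 was below pMSCV in SRF, at -0.13, -0.56 and -0.03 in numbers 1, 2 and 3, and above it in 3 fusions. In SRF against pMSCV, EGR2 passed in neither fit (edgeR adjusted p = 0.981 and 0.799). There the sign of EGR2 turned without pMSCV replicate 1 (0.49) or SRF replicate 2 (0.23). Its log2 fold change against SRF was 1.12 for SRF-FOXO1 (edgeR adjusted p = 0.389 without and 0.004005 with the replicate block), 2.43 for SRF-ICA1L (0.0785 and 2.61e-05) and 1.67 for SRF-RELA (0.361 and 0.000682). EGR3 was below pMSCV in SRF-PDGFRB and above it in those 3 fusions, with 2.01 for SRF-FOXO1 against SRF-PDGFRB (adjusted p = 0.317 and 0.000972), 2.28 for SRF-ICA1L against SRF-PDGFRB (0.332 and 0.000461) and -1.98 for SRF-PDGFRB against SRF-RELA (1.00 and 0.00285). Of these 4 fusions against pMSCV, EGR3 passed only in SRF-ICA1L, with the block. In SRF-RELA it was above pMSCV by 0.068 in number 3. IER2 was above pMSCV in SRF and below it in SRF-RELA, by 0.0053 in number 2, and their comparison gave -0.63 (adjusted p = 0.683 and 0.1003), which passed in neither fit.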

How the results depend on the processing

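The replicate block is a pairing read from the counts, not from the labels. It raised the number of the 10 genes called from 0 to 1 in SRF-RELA, 5 in SRF-ICA1L and 2 in SRF-FOXO1 against pMSCV. Against SRF it gave 1 in SRF-RELA and 3 in each of the other fusions, and between fusions 1, 2, 4 and 3, as reported above. It changed no other call. DESeq2 gave 2 in SRF-ICA1L against pMSCV, 1 against SRF and 2 against SRF-PDGFRB, and no count filter gave 1 (EGR4) against pMSCV and 1 against SRF-PDGFRB. A minimum log2 fold change of 1 left 4 of 7 calls in number 3 against number 1, and in number 2 it dropped EGR2 (-0.89). Number 2 against number 1 alone gave 7 lower and 1 higher, and against number 3 alone 6 lower. The other settings and all 126 fits without 1 library left the counts of calls within 1.5 times, at 0 between groups, 7 for number 2 and 6 to 8 for number 3 against number 1. Signs turned for IER5 in SRF-PDGFRB against SRF-RELA with the block (-0.0076) and in number 2 with total count scaling (-0.0017). The group distance of EGR4 was 3.62 at a prior count of 0.5 and 1.91 at 5, and that of IER2 ran from 0.55 to 0.91 without 1 library. Without 1 library, log2 fold changes that changed sign ran from -0.88 to 0.49 (EGR2, SRF against pMSCV), -2.63 to 0.68, -3.35 to 0.43 and -2.88 to 0.49 (NR4A2 in SRF-RELA, SRF-ICA1L and SRF-FOXO1 against pMSCV), -3.13 to 0.76, -3.15 to 0.17, -3.85 to 0.51 and -3.37 to 0.57 (NR4A2 in SRF-RELA, SRF-PDGFRB, SRF-ICA1L and SRF-FOXO1 against SRF), -4.12 to 0.45 (NR4A1, SRF-PDGFRB against pMSCV), -0.032 to 0.50 and -0.23 to 0.23 (IER5, SRF-PDGFRB against SRF and SRF-RELA), and, in number 2, -0.42 to 0.050 (EGR4) and -0.016 to 0.089 (IER5). The cause was not tested. Depth limits EGR4 and NR4A3.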
